A study of Homo sapiens with 8 samples.

Results

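The TBK1 kinase module and its target IRF3 were followed as 9 genes, TBK1, IKBKE, IRF3, TRAF3, TRAF6, TANK, AZI2, TBKBP1 and OPTN, chosen by symbol. All 9 had 1 entry each among the 46427 genes of the NCI-H1944 table and the 61271 genes of the NCI-H647 table, and all 9 passed the low-count filter in both. NCI-H1944 and NCI-H647 are established human lung cancer cell lines, both labelled wild type and grown in the same medium. In each line 2 libraries came from cells given 100 nM BAY-1217389 (MPS1i), which blocks MPS1, a kinase of the spindle checkpoint, for 48 hours and then kept without drug for 24 hours. The other 2 came from cells given the solvent DMSO in the same way. The study's title concerns RNA sensing after chromosome missegregation and anti-tumour immunity, and the comparison asks how expression was altered after the pulse of inhibitor.

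TBK1 and IKK-epsilon, the product of IKBKE, are related serine/threonine kinases that act where the RNA, DNA and Toll-like receptor pathways meet. Adaptors such as MAVS, STING and TRIF recruit them, TRAF3 and TRAF6 add ubiquitin chains, and TANK, AZI2 (NAP1) and TBKBP1 (SINTBAD) hold the kinase at the adaptor. The kinase then phosphorylates IRF3, which enters the nucleus and switches on interferon genes, and it also phosphorylates OPTN (optineurin), a receptor that delivers ubiquitin-marked cargo to autophagy. Phosphorylation is the main switch of this pathway and RNA counts do not measure it.

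The 9 genes lie on different chromosomes, and positions are those of GENCODE 29 on build GRCh38. Upstream sequence is shown for the 3 members whose RefSeq window (250 bases before to 50 after a start, build GRCh38.p14) held a match to the NF-kB site, since NF-kB is the other branch of this pathway. Of 35116 such windows of all genes, 11.3% held that motif, and of the 12 windows of 8 members 4 did. The 2 windows of OPTN overlap and are counted there with the same matches. No test of this share was made. The interferon-stimulated response element core, GAAANNGAAA, was in 3.57% of all windows and the STAT palindrome TTCNNNGAA in 7.66%, and neither was in any of the 12. Both strands were searched, and IRF3 had no window. Each line gives the 250 bases before a start, 5′ to 3′ on the gene's strand, with the NF-kB match in capitals.
OPTN chr10:13099832-13100081 (+): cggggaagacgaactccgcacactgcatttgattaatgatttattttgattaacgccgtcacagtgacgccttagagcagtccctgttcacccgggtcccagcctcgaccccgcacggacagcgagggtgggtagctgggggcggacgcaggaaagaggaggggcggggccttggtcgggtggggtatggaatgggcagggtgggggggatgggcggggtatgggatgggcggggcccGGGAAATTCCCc
TANK chr2:161136713-161136962 (+): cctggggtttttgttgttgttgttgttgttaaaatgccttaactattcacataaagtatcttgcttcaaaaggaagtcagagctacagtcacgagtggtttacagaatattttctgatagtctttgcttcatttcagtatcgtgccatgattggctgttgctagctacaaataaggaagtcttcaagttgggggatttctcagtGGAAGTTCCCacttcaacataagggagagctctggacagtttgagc
TRAF3 chr14:102777199-102777448 (+): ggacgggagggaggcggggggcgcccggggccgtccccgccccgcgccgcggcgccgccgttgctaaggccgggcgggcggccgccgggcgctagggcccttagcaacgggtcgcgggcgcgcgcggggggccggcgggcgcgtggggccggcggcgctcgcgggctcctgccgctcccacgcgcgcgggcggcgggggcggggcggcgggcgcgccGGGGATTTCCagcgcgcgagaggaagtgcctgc
In OPTN the matches on the 2 strands overlap by all but 1 base, so the capitals run over 11 bases, and the same matches lie in the window of its second start. The starts used here are RefSeq starts. By the GENCODE positions given below, OPTN begins at 13099449 and TANK at 161136908, so their matches lie inside those spans. That of TRAF3 lies before its span. A match is a description of letters and not of a bound site.

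The NCI-H1944 libraries held 38904473 to 43661342 counts and the shallower NCI-H647 libraries 13358514 to 19550859. The lines were prepared with different kits, poly(A) selection in NCI-H1944 and ribosomal RNA depletion in NCI-H647, so levels are set side by side between lines with no test. TTK, which encodes MPS1, fell in both lines (log2 -0.71 ± 0.08 and -0.72 ± 0.04). Of 7 lung epithelial markers 5 in NCI-H1944 and 6 in NCI-H647 reached 1 CPM (the count scaled to library size) in every library. The lung lineage factor gene NKX2-1 and the keratin gene KRT19 were at 0 in NCI-H1944, and CDH1 (E-cadherin) had 3 to 9 counts in NCI-H647. The summed epithelial markers moved with the treatment, from 4132 and 4159.7 to 4780.1 and 4919 CPM in NCI-H1944 and the other way, from 881 and 862 CPM to at most 651 CPM, in NCI-H647. The keratin genes KRT8 and KRT18 rose in NCI-H1944 (0.29 ± 0.02 and 0.19 ± 0.02) and fell in NCI-H647 (-0.41 ± 0.04 and -0.30 ± 0.04), where KRT7 fell too (-0.70 ± 0.04) and KRT19 rose (0.35 ± 0.13). Of 6 endothelial and fibroblast markers 5 were above 1 CPM in every NCI-H647 library, summed at 60.5 and 66.3 CPM in the controls and 52.9 and 49.1 CPM when treated, and CDH5, COL1A1 and COL1A2 fell there (-0.39 ± 0.08, -0.25 ± 0.10 and -0.74 ± 0.11). In NCI-H1944 1 of these 6 was above 1 CPM in every library, and their sum was 4.88 and 5.42 against 8.15 and 8.87 CPM. Of 6 leukocyte markers 2 in NCI-H1944 and 0 in NCI-H647 were above 1 CPM in every library. Their sum was 3.08 to 4.67 CPM in NCI-H1944, and in NCI-H647 1.02 and 0.928 against 2.51 and 2.69 CPM, with the pan-leukocyte gene PTPRC at 0 in the first line and at 1 to 8 counts in the second. What part these marker shifts have in the results was not tested. In RNA of whole cultures, a change in every cell and a change in the share of cells that carry the RNA cannot be told apart.

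In NCI-H1944 OPTN, IKBKE and AZI2 rose after the inhibitor, by 1.62-fold, 1.76-fold and 1.53-fold, and none of the 9 fell. In NCI-H647 OPTN and AZI2 also rose (1.28-fold and 1.17-fold), together with TANK, TBK1, TRAF6 and TBKBP1 (1.31-fold, 1.26-fold, 1.26-fold and 1.57-fold). IRF3 and TRAF3 passed the test in neither line. The counts stood at 3 of 9 in NCI-H1944, where 26.0% of 16738 genes were called in either direction and 13.6% were higher, and at 6 of 9 in NCI-H647, where 54.4% of 15049 genes were called and 27.3% were higher. So the number of members called, in either direction, lies near the background in both lines, and the description rests on the single genes. All called members were higher, and beside the shares of genes higher, 13.6% and 27.3%, their counts stand further above. No test of this was made. The median log2 fold change of the 9 was 0.11 against 0.00 for all genes tested in NCI-H1944, and 0.33 against 0.01 in NCI-H647. Calls are at an adjusted p under 0.05 in edgeR's quasi-likelihood test with Benjamini-Hochberg adjustment over all genes, and each group had n = 2. A change is given on the log2 scale with its fitted standard error after ±, and intervals are 95%.

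**Figure D1:**
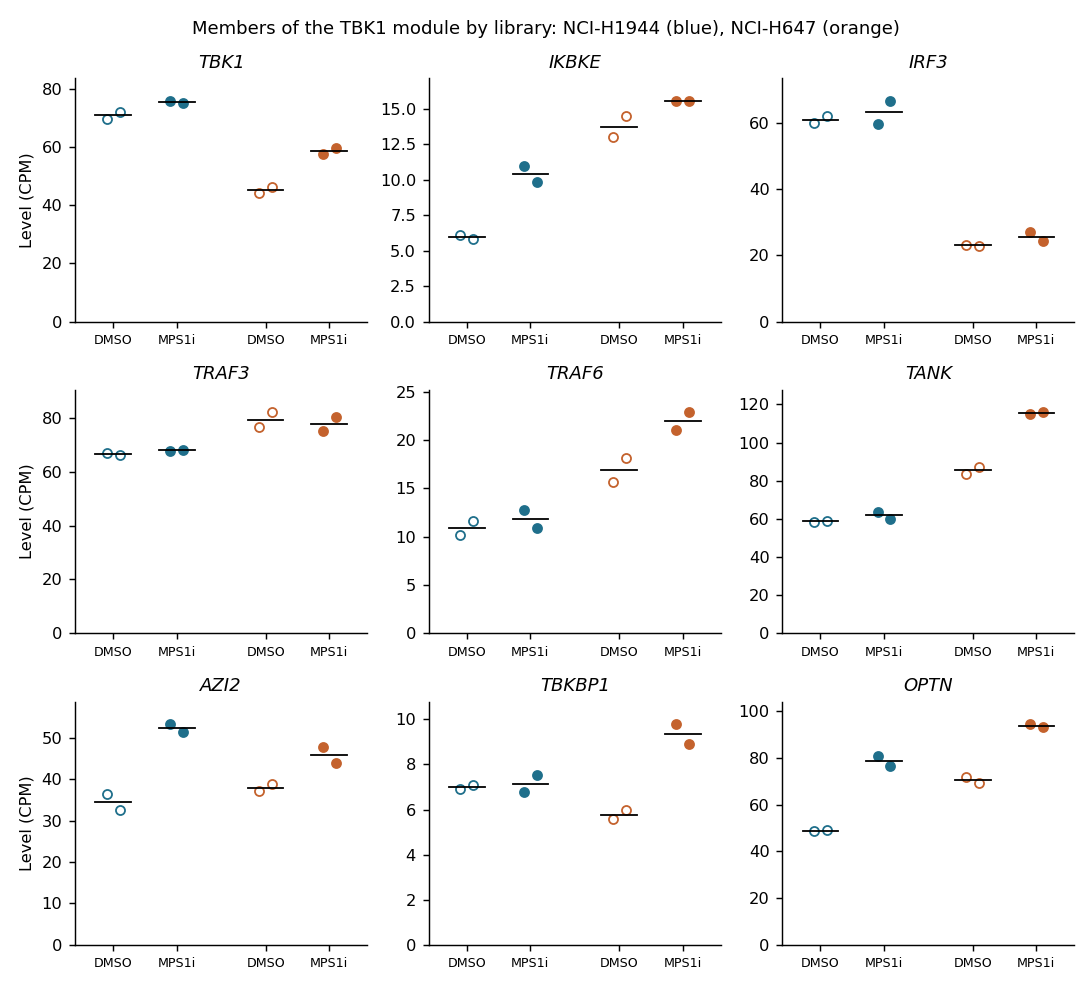
Level of each of the 9 genes in CPM (y axis, from 0) in every library, with DMSO as open and MPS1i as filled points, NCI-H1944 in blue and NCI-H647 in orange, and a line at the mean of 2 libraries. OPTN and AZI2 stand higher after the inhibitor in both lines with no overlap of the groups, while the NCI-H1944 values of IRF3 (59.9 and 61.9 against 59.7 and 66.7 CPM) overlap.

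TBK1 (chromosome 12, 64452090 to 64502114, plus strand) encodes the constitutive kinase of the pair. Its level in NCI-H1944 was 69.5 and 72.1 CPM in DMSO libraries and 75.9 and 75.2 CPM in treated libraries. The groups did not overlap, but the change of 0.11 ± 0.04 was not called (adjusted p = 0.0821, interval 0.02 to 0.20). With at least 50 counts required in every library of a group, it was called (adjusted p = 0.0454). Why the call changed was not tested. In NCI-H647 TBK1 had 44.2 and 46.2 CPM in DMSO libraries and 57.7 and 59.6 CPM in treated libraries. Here both treated libraries lay above both controls and the rise of 0.33 ± 0.05 was called (adjusted p = 7.67e-05). It was not called against a 1.2-fold minimum (adjusted p = 0.111).

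IKBKE (chromosome 1, 206470476 to 206496889, plus strand) encodes IKK-epsilon, the kinase whose gene is known to be inducible in many cell types. In NCI-H1944 it had 6.10 and 5.83 CPM in DMSO libraries and 11.0 and 9.82 CPM in treated libraries, the largest fold rise among the 9 genes in this line (0.81 ± 0.11, adjusted p = 4.91e-05). In NCI-H647 the DMSO libraries stood at 13.0 and 14.5 CPM and the treated libraries at 15.6 and 15.6 CPM. The groups did not overlap there, yet the change of 0.14 ± 0.10 was not called (adjusted p = 0.264, interval -0.07 to 0.35). The difference between the lines was itself called: the NCI-H647 response was lower by 0.70 ± 0.16 on the log2 scale (H647 minus H1944, -0.70, adjusted p = 0.00100). Of 12887 genes tested for such a difference 40.1% were called, and so were 6 of the 9 members.

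Per kilobase of exon, IKBKE was the less abundant kinase in every library. Its share of the summed CPM per kb of both kinases in NCI-H1944 was 9.93% and 9.22% in the controls and 15.4% and 14.1% in the treated libraries. The treated libraries of this line thus held a larger IKBKE share than the controls, with no overlap. In NCI-H647 the share was 27.0% and 28.3% in the controls and 25.4% and 24.7% in the treated libraries. There the treated libraries held the smaller IKBKE share, also with no overlap. The share in NCI-H647 was higher than in NCI-H1944 throughout. These shares are a description with no test. They rest on GENCODE 29 exon lengths for both lines, while the NCI-H1944 table lists genes by NCBI ID with RefSeq transcripts and the NCI-H647 table by Ensembl ID. Shares and orders per kb in NCI-H1944 may therefore use lengths other than those its reads were counted over, and are safest read between treatments within a line.

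IRF3 (chromosome 19, 49659569 to 49665875, minus strand) encodes the transcription factor that the kinases activate. In NCI-H1944 it had 59.9 and 61.9 CPM in DMSO libraries and 59.7 and 66.7 CPM in treated libraries, and the groups overlapped (0.07 ± 0.05, adjusted p = 0.427). In NCI-H647 it had 23.2 and 22.8 CPM in DMSO libraries and 26.9 and 24.3 CPM in treated libraries (0.11 ± 0.07, adjusted p = 0.235). The intervals, -0.05 to 0.18 and -0.05 to 0.26, leave room for a small rise in either line and do not show that IRF3 was unchanged. BCL2L12, on the other strand, overlaps 11.6% of the IRF3 locus, and whether the counting used strand is not given in the sources used here. BCL2L12 fell in both lines (log2 -0.46 ± 0.07 and -0.45 ± 0.10), and its part in the IRF3 counts was not tested.

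TRAF3 (chromosome 14, 102777449 to 102911500, plus strand) links MAVS and TRIF to TBK1. In NCI-H1944 its 4 libraries lay within 66.3 to 68.2 CPM (66.8 and 66.3 after DMSO, 67.7 and 68.2 after the inhibitor), and the change was 0.04 ± 0.04 (adjusted p = 0.538). In NCI-H647 the values were 76.4 and 82.1 CPM in DMSO libraries and 75.1 and 80.2 CPM in treated libraries, which overlapped (-0.08 ± 0.06, adjusted p = 0.267). The intervals were -0.05 to 0.13 and -0.20 to 0.04. TRAF3 had an NF-kB match upstream and no called change in either line, and no link between match and response was tested.

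TRAF6 (chromosome 11, 36483769 to 36510272, minus strand) encodes the ubiquitin ligase of the NF-kB arm. In NCI-H1944 it had 10.2 and 11.6 CPM in DMSO libraries and 12.8 and 10.9 CPM in treated libraries, with overlapping groups (0.14 ± 0.11, adjusted p = 0.401). In NCI-H647 it rose from 15.7 and 18.1 CPM to 21.0 and 22.9 CPM (0.34 ± 0.09, adjusted p = 0.00561). TRAF6 was no longer called when DMSO library 1 was left out (0.23, adjusted p = 0.0672), without the second treated library (0.26, adjusted p = 0.0781), in DESeq2 (adjusted p = 0.0877) and against a 1.2-fold minimum (adjusted p = 0.205).

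**Figure D2:**
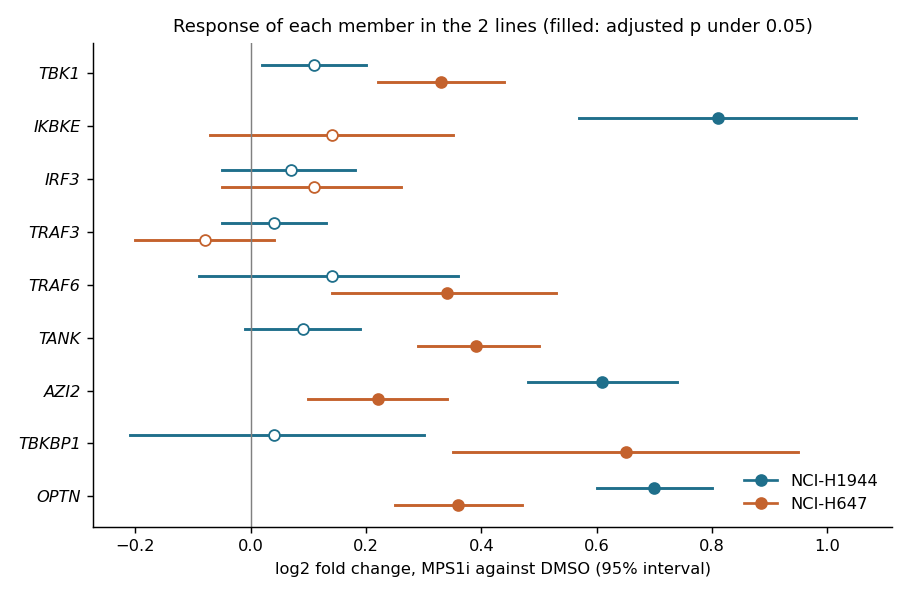
log2 fold change of MPS1i against DMSO (x axis) with its 95% interval for each of the 9 genes, NCI-H1944 in blue and NCI-H647 in orange, filled where the adjusted p was under 0.05. Filled points in both lines are seen only for AZI2 (0.61 and 0.22) and OPTN (0.70 and 0.36), and IKBKE has the widest gap between the lines (0.81 and 0.14).

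The 3 scaffolds that bind TBK1 moved differently in the 2 lines. TANK (chromosome 2, 161136908 to 161236230, plus strand) was the scaffold with the most CPM per kb in every library. In NCI-H1944 it had 58.4 and 58.9 CPM in DMSO libraries and 63.6 and 60.0 CPM in treated libraries, with no overlap but no call (0.09 ± 0.05, adjusted p = 0.195, interval -0.01 to 0.19). In NCI-H647 it rose from 83.6 and 87.3 CPM to 115 and 116 CPM (0.39 ± 0.05, adjusted p = 7.17e-06). The response was greater in NCI-H647 by 0.28 ± 0.07 (adjusted p = 0.00174).

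AZI2 (chromosome 3, 28315003 to 28349050, minus strand) encodes NAP1, which has roles in both interferon signalling and mitophagy. In NCI-H1944 it rose from 36.6 and 32.7 CPM to 53.5 and 51.5 CPM (0.61 ± 0.06, adjusted p = 8.98e-07). In NCI-H647 it rose from 37.3 and 38.8 CPM to 47.8 and 44.0 CPM (0.22 ± 0.06, adjusted p = 0.00337). The response in NCI-H647 was the smaller (difference -0.41 ± 0.09, adjusted p = 0.00142). In NCI-H647 the call was lost without the first treated library (0.15, adjusted p = 0.0660), in DESeq2 (adjusted p = 0.0999), with no low-count filter (adjusted p = 0.0556) and against a 1.2-fold minimum (adjusted p = 0.779). CMC1 overlaps 29.8% of the AZI2 locus on the other strand and was not called in either line (0.08 ± 0.07, adjusted p = 0.432, and -0.09 ± 0.09, adjusted p = 0.444).

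TBKBP1 (chromosome 17, 47694161 to 47712052, plus strand) encodes SINTBAD and was the scaffold with the lowest CPM per kb in every library. In NCI-H1944 it had 6.92 and 7.07 CPM in DMSO libraries and 6.78 and 7.52 CPM in treated libraries, with the treated values on both sides of the controls (0.04 ± 0.12, adjusted p = 0.836, interval -0.21 to 0.30). In NCI-H647 it rose from 5.58 and 5.97 CPM to 9.81 and 8.91 CPM (0.65 ± 0.14, adjusted p = 0.00113), on 109 and 103 counts against 133 and 119. The lines differed by 0.58 ± 0.19 (adjusted p = 0.0193). That difference was lost without the first treated NCI-H1944 library (0.51, adjusted p = 0.0566), the first NCI-H647 DMSO library (0.54, adjusted p = 0.0773) or the first treated NCI-H647 library (0.51, adjusted p = 0.0961), and in DESeq2 (adjusted p = 0.0732).

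Among the summed CPM per kb of the 3 scaffolds, the AZI2 share in NCI-H1944 was 32.3% and 29.7% in the controls and 39.4% and 39.3% in the treated libraries. TANK's share there was 58.7% and 60.8% against 53.2% and 52.2%. In NCI-H647 the AZI2 share was 26.5% and 26.4% in the controls and 24.7% and 23.2% in the treated libraries, and the TBKBP1 share was 5.88% and 6.03% against 7.51% and 6.97%. The mix of scaffold RNA therefore shifted towards AZI2 in NCI-H1944 libraries and away from it in those of NCI-H647, as a description with no test.

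**Figure D3:**
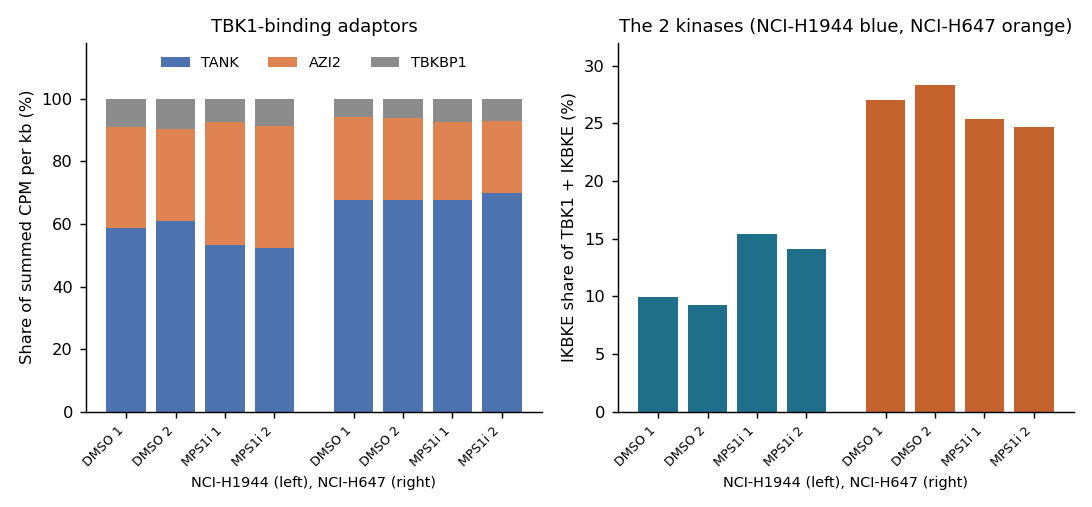
Left, shares (%) of TANK, AZI2 and TBKBP1 in their summed CPM per kb of exon in each library. Right, the share (%) of IKBKE in the sum of TBK1 and IKBKE, from 9.22% to 15.4% in NCI-H1944 (blue) and from 24.7% to 28.3% in NCI-H647 (orange).

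OPTN (chromosome 10, 13099449 to 13138308, plus strand) encodes the autophagy receptor that TBK1 phosphorylates. In NCI-H1944 it rose from 48.6 and 49.0 CPM to 80.9 and 76.4 CPM (0.70 ± 0.05, adjusted p = 7.54e-09), the smallest adjusted p among the 9 genes in this line. In NCI-H647 it rose from 71.9 and 69.5 CPM to 94.7 and 93.1 CPM (0.36 ± 0.05, adjusted p = 2.35e-05). The treated libraries were above the controls in both lines, and the response in NCI-H647 was smaller by 0.36 ± 0.07 (H647 minus H1944, -0.36, adjusted p = 2.91e-04). OPTN was called under all 11 alternatives in each line, with an adjusted p of at most 0.00126 in NCI-H1944 and 0.0356 in NCI-H647. Its window, shown above, held overlapping NF-kB matches 12 bases before a RefSeq start, inside the GENCODE span given here. No link between match and response was tested.

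Of the remaining differences between the lines, that of TBK1 was 0.20 ± 0.08 in favour of NCI-H647 (adjusted p = 0.0416). It was lost without any one of 7 of the 8 libraries (adjusted p from 0.0516 to 0.150), kept without the second NCI-H647 DMSO library (0.0456), and lost in DESeq2 (0.0680). Differences were not called for IRF3 (0.02 ± 0.10, adjusted p = 0.908), TRAF3 (-0.14 ± 0.07, adjusted p = 0.127) or TRAF6 (0.18 ± 0.15, adjusted p = 0.367), with intervals of -0.20 to 0.24, -0.29 to 0.01 and -0.13 to 0.49. So the called differences point both ways: TBK1, TANK and TBKBP1 responded more in NCI-H647, and IKBKE, AZI2 and OPTN more in NCI-H1944.

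By level per kilobase of exon, the order after DMSO in NCI-H1944 was IRF3 (16.1 ± 0.382 CPM per kb, SD, n = 2), TBK1 (14.9 ± 0.388), TANK (10.5 ± 0.0555), OPTN (9.50 ± 0.0595), TRAF3 (8.05 ± 0.0492), AZI2 (5.46 ± 0.433), TRAF6 (2.24 ± 0.210), TBKBP1 (1.63 ± 0.0253) and IKBKE (1.57 ± 0.0498). No neighbours in that order overlapped between libraries. After the inhibitor OPTN (15.3 ± 0.623) stood above TANK (11.1 ± 0.448), and IKBKE (2.74 ± 0.214) had left the last place to TBKBP1 (1.67 ± 0.123). There IRF3 overlapped TBK1, AZI2 overlapped TRAF3, and IKBKE overlapped TRAF6.

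In NCI-H647 the order after DMSO was TANK (15.3 ± 0.470 CPM per kb), OPTN (13.8 ± 0.329), TRAF3 (9.59 ± 0.492), TBK1 (9.49 ± 0.301), IRF3 (6.06 ± 0.0802), AZI2 (5.99 ± 0.168), IKBKE (3.63 ± 0.271), TRAF6 (3.46 ± 0.355) and TBKBP1 (1.35 ± 0.0658). The pairs TRAF3 and TBK1, IRF3 and AZI2, and IKBKE and TRAF6 overlapped. By these GENCODE lengths IRF3 was the first of the 9 in NCI-H1944 and the fifth in NCI-H647, an order that another annotation, library kit or depth could alter. After the inhibitor TANK (20.8 ± 0.129) and OPTN (18.3 ± 0.213) kept the first places and TBK1 (12.3 ± 0.287) stood above TRAF3 (9.39 ± 0.438) with no overlap.

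The genes around the module were read from 6 lists, beside all genes tested, of which 13.6% were higher and 12.4% lower in NCI-H1944 and 27.3% higher and 27.0% lower in NCI-H647. No difference of a list between the lines was tested. Among 11 adaptors and TRAF proteins 7 were higher and 1 lower in NCI-H1944 (median 0.18). In NCI-H647, against its larger background, 7 were higher and 1 lower (median 0.52). MAVS, the adaptor of the RNA sensors, was the gene that fell, from 148 and 141 CPM to 116 and 120.3 CPM in NCI-H1944 (-0.28 ± 0.04) and from 79.5 and 79.6 CPM to 60.5 and 63.6 CPM in NCI-H647 (-0.41 ± 0.05, adjusted p = 8.99e-06). TICAM1 (TRIF), the adaptor of Toll-like receptor 3, rose by 0.72 ± 0.06 and 0.80 ± 0.16. STING1, the adaptor of DNA sensing, rose by 1.01 ± 0.08 and 0.27 ± 0.06. MYD88, the adaptor of most Toll-like receptors, rose by 1.61 ± 0.05 and 0.64 ± 0.12. In NCI-H647 the smallest adjusted p were those of TRAF4 (0.88 ± 0.05) and TRAF1 (1.93 ± 0.18), relatives of TRAF3. The 3 adaptors that recruit TBK1 thus divided in both lines, with MAVS lower and STING1 and TICAM1 higher.

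The canonical IKK and TAK1 genes, which serve NF-kB, were higher in 3 and lower in 1 of 9 in NCI-H1944 (median 0.07) and higher in 5 and lower in 1 in NCI-H647 (median 0.23). In either direction the calls lie near the background of 26.0% and 54.4%. RELA, a subunit of NF-kB, rose by 0.20 ± 0.04 and 0.69 ± 0.06. Of the ubiquitin enzymes and binding proteins that act on the module 9 were higher and 1 lower of 23 in NCI-H1944 (median 0.07), and 15 higher and 3 lower of 24 in NCI-H647 (median 0.41). The larger count in NCI-H647 goes with the larger share of all genes called there, 54.4% against 26.0%. BIRC3 (cIAP2), a ligase partner of TRAF proteins, rose by 1.39 ± 0.04 and 1.43 ± 0.04. TNFAIP3 (A20), which edits ubiquitin and restrains the pathway, rose by 1.07 ± 0.06 and 1.15 ± 0.05, and TRIM21, an interferon-induced ligase, by 2.59 ± 0.08 and 1.12 ± 0.12.

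Of the IRF family and coactivators 6 of 11 were higher in NCI-H1944 (median 0.43) and 7 of 10 in NCI-H647 (median 0.54). None was lower. Of all genes, 13.6% and 27.3% were higher, and 26.0% and 54.4% were called in either direction. IRF7, the inducible relative of IRF3, rose by 2.30 ± 0.05 and 2.43 ± 0.12, and IRF1 by 1.48 ± 0.06 and 1.43 ± 0.07. Of the partners of OPTN in selective autophagy 4 of 12 were higher and 1 lower in NCI-H1944 (median 0.06). In NCI-H647, where 27.3% of all genes were higher against 13.6% in NCI-H1944, 12 of 12 were higher (median 0.39). GABARAPL1, an ATG8 protein that receptors bind, rose by 0.33 ± 0.04 in NCI-H1944, and in NCI-H647 from 76.3 and 69.6 CPM to 171 and 175 CPM (adjusted p = 5.08e-11). CALCOCO2 (NDP52), a receptor that binds NAP1, rose by 0.26 ± 0.04 and 0.26 ± 0.05, and SMCR8, which works with C9orf72, by 0.20 ± 0.04 and 0.90 ± 0.05.

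Of 13 IRF3-responsive genes, several had so few counts in DMSO libraries that they could be tested only because the treated libraries were high. These were IFNB1, IFNL1, IFNL2, IFNL3 and CXCL10 in NCI-H1944 and CXCL10 and RSAD2 in NCI-H647, while the 4 interferon genes were not tested in NCI-H647. No count or median over the list is therefore given, since the tested genes had to differ and are not the same in the lines. IFNB1, a type I interferon, was at 0 counts in both NCI-H1944 controls and at 26 and 22 counts in the treated libraries, and in NCI-H647 at 0 in both controls and at 1 and 2 counts when treated. IFNL1, a type III interferon, had 5 and 2 against 241 and 309 counts in NCI-H1944, and 0 and 0 against 1 and 0 in NCI-H647. The interferon genes that IRF3 controls were therefore counted in treated NCI-H1944 libraries and were at or below 3 counts over each group in NCI-H647. The NCI-H647 libraries were shallower and made with another kit, so these counts are not on one scale. Scaled to library size, treated IFNB1 averaged 0.553 CPM in NCI-H1944 and 0.112 CPM in NCI-H647, and IFNL1 6.35 and 0.0369 CPM. Whether either gene rose in NCI-H647 was not tested. CCL5, a chemokine gene that IRF3 can drive, rose in both lines, by 2.14 ± 0.06 and 3.26 ± 0.15. ISG15, which both IRF3 and interferon induce, rose by 2.86 ± 0.03 and 3.58 ± 0.06. Of the 13 RefSeq windows of 10 genes of this list 9 held the GAAANNGAAA core, beside 3.57% of all windows. The list was chosen for its response to IRF3, and no test was made. The 12 windows of the module's genes held none, which is near the share of all windows and no result about the module.

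**Figure D4:**
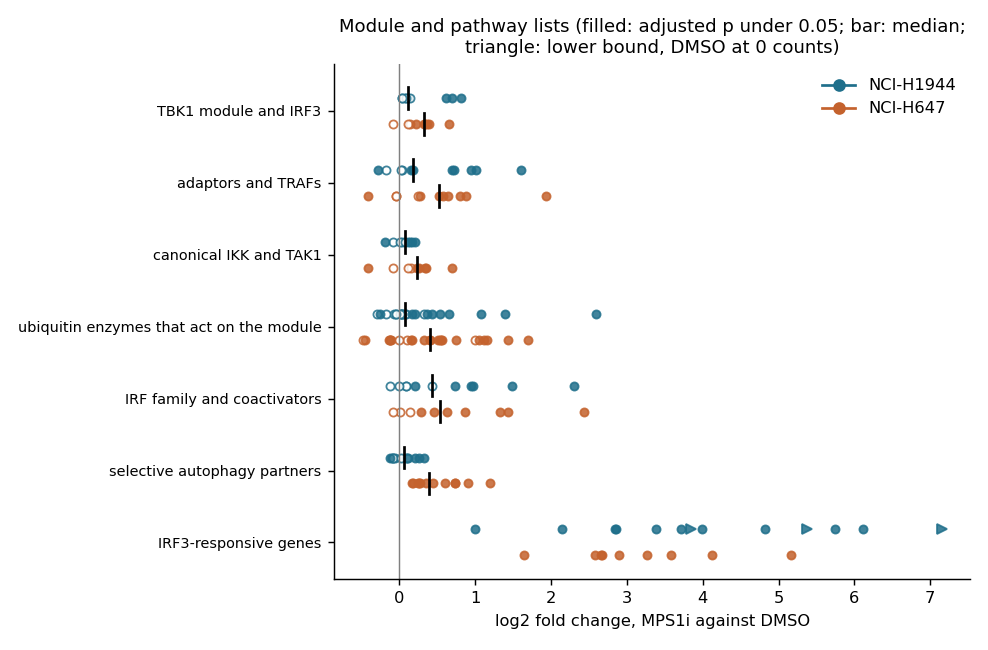
log2 fold change of MPS1i against DMSO (x axis) for every tested gene of the module and of the 6 lists, NCI-H1944 in blue and NCI-H647 in orange, filled where the adjusted p was under 0.05, with triangles at the lower bound of the 3 genes with 0 counts after DMSO and a bar at each list's median, except for the IRF3-responsive genes, some of which were testable only through high treated libraries. The module's genes lie between -0.08 and 0.81.

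Among 10936 other genes tested in both lines and averaging 1 or more in log2 CPM, those nearest to a member over the 8 libraries were found by the distance of log2 CPM centred within each line. Nearest to TBK1 were TXNDC11, SEC62 and EFCAB14 (distances 0.0237, 0.0411 and 0.0425). TXNDC11 changed by 0.12 in NCI-H1944 and 0.32 in NCI-H647 on the log2 scale. Nearest to IKBKE were LIMA1, STARD13 and JCAD (0.106, 0.154 and 0.157), and nearest to IRF3 were HDAC7, ADGRE5 and COASY (0.0583, 0.0745 and 0.0891). The nearest genes of IKBKE lay farther away than those of TBK1 or IRF3. Distances were not scaled for counting error or for the size of a change. IKBKE had 208 to 479 counts per library and TBK1 782 to 3315, and the part of this in the distances was not tested. Nearness over 8 libraries of 4 groups is a description of these values alone.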

How the data were processed

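The authors deposited 1 table of raw gene counts per line, whole numbers that were not normalized. Trimming (cutadapt, Trim Galore, Trimmomatic), alignment (HISAT2, STAR) and counting or assembly tools (StringTie, featureCounts) on GRCh38 are listed in the submitters' processing notes. Which of them made which table, with what version and strand setting, is not given in the sources used here. Per the labels' protocols, both kits are stranded.

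Samples were grouped by title. Each line was fitted alone with edgeR 4.0.16 in R 4.3.3: filterByExpr (minimum count 10, minimum total 15), TMM factors from 0.982 to 1.018, quasi-likelihood F test, Benjamini-Hochberg adjustment over all genes, threshold 0.05. Standard errors were derived from the log2 change and F. The difference between lines was the interaction in a joint fit of 8 libraries on 12887 genes of 32128 shared symbols, with its own TMM factors, so it can depart from the subtraction of the separate fits. CPM scale the deposited counts by the library total, without TMM factors, so ratios of CPM can depart slightly from fitted changes. Per-kb levels divide CPM by the union of GENCODE 29 exons. The tests were also run on simulated counts with the same dispersion for every gene. That outcome is not given here, and no result rests on it. DESeq2 1.42.0 and other filters, scalings and left-out libraries were alternatives.

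No library was a copy of its replicate: the chi-square of their counts over its degrees of freedom was 1.98 to 3.93. The labels do not say that replicates were separate cultures, so p-values measure the spread between these libraries, which may be technical. A floor is 3 counts over a group and covers counting error only. Members and lists were chosen with earlier results of these data known. The rule named all 9 members, TTK, IFNB1, IFNL1, CCL5, 2 genes per list and line by smallest adjusted p, of which the text gives a part, and the 3 nearest genes to TBK1, IKBKE and IRF3. MAVS, TICAM1 and the overlapping genes BCL2L12 and CMC1 lie outside it, picked once values were known. A planned comparison of protein sequences was not made.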

Additional observations from a re-analysis of the deposited data

Results flagged for a closer look

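For 6 of the 9 genes the response to the inhibitor differed between the lines by the interaction test of the joint edgeR fit, against 40.1% of the genes tested. As the NCI-H647 response minus the NCI-H1944 response on the log2 scale, the difference was -0.70 for IKBKE (adjusted p = 0.00100), -0.41 for AZI2 (adjusted p = 0.00142) and -0.36 for OPTN (adjusted p = 2.91e-04). It was 0.28 for TANK (adjusted p = 0.00174), 0.58 for TBKBP1 (adjusted p = 0.0193) and 0.20 for TBK1 (adjusted p = 0.0416). The differences of TBKBP1 and TBK1 were lost in DESeq2 (adjusted p = 0.0732 and 0.0680), and that of TBK1 also with the replicate block (adjusted p = 0.0572). Those of IKBKE, AZI2, OPTN and TANK were kept in both. Line, library kit and sequencing depth vary together in this design and cannot be told apart.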

How the results depend on the processing

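All 9 members kept their direction of change wherever it was called, and no member was called lower under any alternative run. In NCI-H1944 the count of members higher was 3 under every alternative but the filter of 50 counts, which gave 4, and it was 3 without any one library. In NCI-H647 it was 6, but 4 in DESeq2, 5 with no low-count filter, 3 against a 1.2-fold minimum, and from 5 to 6 without any one library. Members with a difference between the lines numbered 6, but 4 in DESeq2, 5 with the replicate block and from 4 to 6 without any one library. The cause of these losses was not tested. Over all genes in NCI-H1944, 1319 were higher and 1006 lower with no low-count filter, and 856 and 294 against the 1.2-fold minimum, in which fewer changes can pass by construction. In NCI-H647 DESeq2 called 2666 higher, and 2268 were higher and 2082 lower against the minimum. Without scaling factors 2136 and 2256 were called in NCI-H1944, and 4634 and 3550 in NCI-H647.

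The replicate numbers share no stated source, and the deviations of same-numbered libraries correlated at 0.04 in NCI-H1944 and 0.00 in NCI-H647. With the replicate block 3 members in NCI-H1944 and 6 in NCI-H647 were higher, and the TBK1 difference between the lines had an adjusted p = 0.0572. TBKBP1, at 103 to 133 counts in NCI-H647, is the least precise member there.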
